A study of Mus musculus with 30 samples.

Results

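Brain tumors that followed injection of a GFAP-CRE construct were compared between hippocampus and cortex, each set against the normal tissue of its own region. The regional interaction of a gene was the change from normal hippocampus to GFAP hippocampus tumor minus the change from normal cortex to GFAP cortex tumor, so a positive value means that the gene rose more, or fell less, in the hippocampus. It used 19 of the 30 arrays of the series: 7 GFAP hippocampus tumors, 4 GFAP cortex tumors, 4 normal hippocampus and 4 normal cortex samples, all from mice. GFAP, the gene of an astrocyte filament, lends its promoter to the construct in both tumor groups, and the normal tissues carry no promoter in the labels. The labels give no strain, age, oncogenic lesion or animal for any sample. The tumors were dissected pieces, so each value mixes tumor cells with the host cells in the piece, and fewer cells of a type cannot be told apart from less RNA per cell. The other 11 arrays (4 SYN1 cortex tumors, 4 NES hippocampus tumors and 3 GFAP tumors of the subventricular zone, SVZ) entered the shared estimate of spread and the descriptions that name them.

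A total of 19938 genes were measured as log2 signal on Affymetrix Mouse Gene 1.0 ST arrays. The mean difference between the normal tissues was under 0.5 log2 in 18777 genes and 0.5 log2 or more in 1161, of which 460 were higher in normal hippocampus and 701 higher in normal cortex. The separation matters because the interaction equals the difference between the 2 tumor groups minus the difference between the 2 normal tissues. Where the normal tissues differ, the interaction holds that difference with its sign turned, so its direction there is not a finding. The direct difference between the tumor groups holds no normal mean, so its value does not depend on the split. Its SE and p-value rest on the spread shared by all arrays, among which the normal arrays varied less than the tumors.

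Neurons and glia of the forebrain carry regional identity. Transcription factors such as Prox1 in dentate granule cells and Zbtb20 in hippocampal pyramidal and granule cells, and receptors, adhesion molecules and secreted proteins downstream of such factors, set hippocampal neurons apart from those of the neocortex.

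The normal arrays resembled each other closely, with a median standard deviation over genes of 0.13 log2 in hippocampus and 0.10 in cortex, against 0.35 in GFAP hippocampus tumors and 0.32 in GFAP cortex tumors. On the second principal component (14.2% of the variance), GFAP cortex tumor 1 (-67.0) and GFAP hippocampus tumors 5 to 7 (-74.7, -55.9 and -61.8) stood apart from the other arrays, so values are also given without these 4. Hippocampus tumors 5 to 7 had the highest maximal signals of all arrays, 15.7 to 16.1 log2. The mean of 20 neuron and synapse genes was 7.77 in cortex tumor 1, 10.25 to 10.96 in the other cortex tumors, 9.02 to 10.63 in hippocampus tumors and 11.42 to 11.93 in normal tissue. Of the promoter genes, Nes, a progenitor filament gene, rose 3.63 in hippocampus and 3.53 in cortex tumors. Syn1, a synaptic vesicle gene, fell by 2.58 and 2.56 (in cortex by 1.67 without cortex tumor 1), while Gfap did not pass the test in either region (1.28 with adjusted p = 0.0891, and 1.09 with adjusted p = 0.257). Gfap measured 6.89 in cortex tumor 1 and 10.75 to 11.93 in the other cortex tumors, and without cortex tumor 1 it rose 2.19 in cortex (adjusted p = 0.00201) and 1.28 in hippocampus tumors (adjusted p = 0.00828). The hippocampus value of Gfap was 0.84 without the 4 arrays (adjusted p = 0.0668). None of the 3 interactions passed (0.09 ± 0.65 for Nes, -0.02 ± 0.79 for Syn1 and 0.19 ± 0.90 for Gfap, fitted value ± SE). Without cortex tumor 1 they were 0.14, -0.91 and -0.91, and without the 4 arrays 0.67, -0.51 and -1.35, again without a call.

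Tumor changes in the 2 regions were correlated across genes. The changes in hippocampus and cortex, which share no arrays, had a Pearson r of 0.86 across all genes as a description, 0.89 across genes with like normal tissues and 0.63 across the others. Of all genes, 77.4% changed in the same direction. The hippocampus comparison called 3213 genes higher (16.1%) and 5032 lower (25.2%), and the cortex comparison 1794 higher (9.0%) and 3742 lower (18.8%), by limma at an adjusted p under 0.05. The first rests on 7 tumor arrays and the second on 4, so these counts do not compare the size of the change. A gene called in 1 region only may also have changed in the other. The median interaction over all genes was 0.03 log2, with a median SE of 0.27.

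The interaction passed the same threshold in 167 genes (0.838%), 68 of them higher (0.341%) and 99 lower (0.497%). Among genes with like normal tissues 39 of 18777 passed (0.208%), and among genes with a normal difference 128 of 1161 (11.0%). The larger share in the second set is partly built in, as the normal difference is a term of the interaction. Without the 4 arrays that stand apart, 537 genes passed (2.69%), 347 higher (1.74%) and 190 lower (0.953%), and 155 of the 167 were among them. Leaving out cortex tumor 1, cortex tumor 3 or normal cortex 1 gave 270, 108 and 111 calls in place of 167. With the replicate number as a block 542 genes passed, of which 157 were among the 167.

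Genes higher in normal hippocampus made up the largest called set. Of the 460 such genes, 91 had a called negative interaction (19.8%) and none a called positive one. All 91 fell in hippocampus tumors. In cortex tumors 71 of them did not pass the test, 13 fell as well and 7 rose. Their median values were 1.30 log2 for the normal difference, -0.35 for the tumor difference and -1.71 for the interaction. The direct difference between the tumor groups passed in 4 of the 91, beside 2.68% of all genes.

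The promoters of Prox1 and, as a counterpart from the genes higher in normal cortex, Dkkl1 are shown because both hold the letters CAGATG, 1 form of the E-box bound by NeuroD-type factors, whose own genes Neurod1 and Neurod6 fell in the tumors of both regions. The 300 bases are RefSeq sequence of GRCm38.p6 from 250 before to 50 after the annotated start, on the minus strand in both cases, at chr1:190170778-190171077 and chr7:45211834-45212133, with the match in capitals.
Prox1: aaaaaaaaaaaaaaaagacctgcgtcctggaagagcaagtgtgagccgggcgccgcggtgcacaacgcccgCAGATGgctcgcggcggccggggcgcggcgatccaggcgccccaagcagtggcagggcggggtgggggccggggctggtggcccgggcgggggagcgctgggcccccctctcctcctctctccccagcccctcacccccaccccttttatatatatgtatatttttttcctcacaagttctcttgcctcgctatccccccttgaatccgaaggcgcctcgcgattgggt
Dkkl1: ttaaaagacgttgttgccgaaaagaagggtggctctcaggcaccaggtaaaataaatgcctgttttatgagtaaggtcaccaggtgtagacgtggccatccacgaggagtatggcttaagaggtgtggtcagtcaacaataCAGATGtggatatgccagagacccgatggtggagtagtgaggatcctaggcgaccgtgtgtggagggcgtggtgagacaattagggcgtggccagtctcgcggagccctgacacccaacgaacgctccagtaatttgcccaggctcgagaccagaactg
Searched on both strands (CAGATG or CATCTG), the letters stood in 14.1% of the 15614 promoters matched to tested genes by symbol. They stood in 11 of the 63 matched promoters of the 91 genes (17.5%) and in 7 of the 31 matched promoters of the 37 called genes higher in normal cortex (22.6%). A match is a description of the letters and not a binding site. A part of NeuroD-type factors in the changes of Prox1 and Dkkl1 was not tested.

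Prox1, the granule cell factor, measured 10.24, 9.84, 9.92 and 9.90 log2 in normal hippocampus 1 to 4 and 7.01 to 8.15 in the 7 hippocampus tumors, with a median of 7.21. It measured 7.80 to 7.99 in normal cortex and 6.46, 7.25, 8.56 and 7.26 in cortex tumors 1 to 4. All hippocampus tumors lay below all normal hippocampus samples and overlapped both cortical groups. Prox1 fell by 2.61 in hippocampus tumors (6.10-fold, adjusted p = 9.26e-08 by limma), and in cortex tumors the value was -0.50 (adjusted p = 0.247). The tumor groups differed by -0.02 (adjusted p = 0.985).

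Other transcription regulators were also called. Zbtb20, needed for hippocampal pyramidal identity, fell by 1.69 in hippocampus tumors and had 0.27 in cortex tumors (adjusted p = 0.54), with an interaction of -1.96 ± 0.38 SE. Neurod1 fell in both regions, by 3.06 in hippocampus and by 1.44 in cortex, and its interaction of -1.62 had an adjusted p of 0.0156. Lhx9 had an interaction of -1.77, Nr3c2, the mineralocorticoid receptor, -2.33, and Bcl6, a transcriptional repressor, -1.23.

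Receptors for transmitters and peptides among the 91 are given as examples, picked after their values were seen. Npy2r, a receptor for neuropeptide Y, measured 9.24, 8.89, 9.05 and 8.91 in normal hippocampus and 5.71 to 6.79 (median 6.34) in hippocampus tumors. Normal cortex had 6.04 to 6.33 and cortex tumors 1 to 4 had 6.18, 6.74, 7.98 and 6.15. The hippocampus tumors thus lay at the level of normal cortex, and cortex tumor 3 was the highest tumor. The interaction of Npy2r was -3.39 ± 0.44 SE (adjusted p = 4.86e-05). The dopamine receptor gene Drd5 (-2.32), the serotonin receptor genes Htr4 (-2.26), Htr1a (-1.46) and Htr5b (-1.46), the melanocortin receptor gene Mc4r (-1.93) and the muscarinic receptor gene Chrm5 (-1.28) were also called.

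Ndst4, an enzyme that modifies heparan sulfate, measured 9.30 to 9.74 in normal hippocampus and 5.57 to 7.49 (median 6.01) in hippocampus tumors. Normal cortex lay at 5.94 to 6.53, and cortex tumors 1 to 4 at 5.25, 8.72, 7.03 and 5.60. The Ndst4 interaction was the largest in size of all called genes, at -3.76 ± 0.72 SE (adjusted p = 0.00685), and the tumor groups overlapped. Shisa6, an auxiliary subunit of AMPA receptors, had -3.67 ± 0.79 (adjusted p = 0.0174). Its hippocampus tumors divided into 8.56 to 9.20 in tumors 1 to 4 and 6.82 to 7.0 in tumors 5 to 7, against 11.12 to 11.66 in normal hippocampus.

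Syna, a fusogenic envelope gene of retroviral origin, and Lct, the lactase gene, had the smallest adjusted p-values (2.51e-08 for both). Syna measured 9.83 to 10.13 in normal hippocampus, 6.27 to 7.21 in hippocampus tumors, 6.90 to 7.01 in normal cortex and 7.19, 6.71, 8.03 and 6.76 in cortex tumors 1 to 4. Lct measured 8.91 to 9.26, 6.10 to 6.55, 6.82 to 6.96 and 6.75, 6.45, 7.25 and 6.45 in the same order. For both genes only the normal hippocampus samples were high. Cabp7, a calcium-binding protein gene, had an interaction of -3.21 ± 0.65, and Pcdh20, a protocadherin gene, -3.07 ± 0.51. Pcdh20 fell in both regions, by 4.14 in hippocampus and by 1.07 in cortex.

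The 7 genes that fell in hippocampus tumors and rose in cortex tumors were Gpc4, Klk8, Phxr4, Pkp2, Ror1, Smoc2 and Tanc1. Pkp2, a desmosome gene, measured 8.45 to 8.98 in normal hippocampus and 6.42 to 8.48 in hippocampus tumors, with tumor 5 the lowest. It measured 6.59 to 6.95 in normal cortex and 7.96, 7.5, 8.07 and 7.67 in cortex tumors 1 to 4. From opposite starting levels Pkp2 fell by 0.98 and rose by 1.10 to a tumor difference of -0.02 (adjusted p = 0.985). Klk8, a serine protease of hippocampal neurons, fell by 0.87 and rose by 1.12, with a tumor difference of -0.36. Dsp, the partner of Pkp2 in desmosomes, measured 10.28 in cortex tumor 1 and 6.57 to 7.32 in the other cortex tumors. Its interaction was -2.98 (adjusted p = 0.04), -2.12 without cortex tumor 1 (adjusted p = 0.0271) and -1.85 without the 4 arrays (adjusted p = 0.0512).

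Genes higher in normal cortex made up the second set. Their normal difference is a term of the interaction and moves it toward positive values. Of the 701 genes, 37 had a called positive interaction (5.28%) and none a called negative one. In 24 of the 37 the cortex tumors fell and the hippocampus comparison did not pass. In 8 the hippocampus tumors rose and the cortex comparison did not pass, in 2 (Otud1 and Rassf3) the hippocampus tumors rose and the cortex tumors fell, and in 3 (Catsperz, Cckbr and Sowahb) both fell. Their median tumor difference was 0.09 log2, and it passed in 3. With the replicate block 231 genes with a normal difference passed in place of 128, 129 higher and 102 lower. The mean of 11 striatum and septum genes varied among the normal cortex samples, with 8.54, 8.56, 9.83 and 9.44, against 8.25 to 8.36 in normal hippocampus, and was high in hippocampus tumor 5 (9.77) and cortex tumor 2 (9.49). The part of this variation in the cortex set was not tested.

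Dkkl1, a secreted protein gene related to the Dickkopf family, had the largest positive interaction among them, 2.25 ± 0.38 SE (adjusted p = 0.00164). It measured 10.04, 9.85, 9.54 and 9.86 in normal cortex and 6.73, 7.89, 6.99 and 7.42 in cortex tumors 1 to 4. Normal hippocampus had 6.75 to 7.11, and the hippocampus tumors 6.08 to 6.76 apart from tumor 5 at 7.94. Only normal cortex was high. Dkkl1 fell by 2.57 in cortex tumors (5.93-fold). Cckbr, a cholecystokinin receptor gene, fell by 2.91 in cortex and by 0.76 in hippocampus tumors, and the tumor groups differed by -0.01. The Ras exchange factor gene Rasgef1b (2.03 ± 0.45), the myosin light chain gene Myl4 (1.99 ± 0.41) and the growth factor binding gene Igfbp6 (1.89 ± 0.34) fell in cortex tumors and were not called in hippocampus tumors.

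Efna5, an ephrin ligand gene, divided the hippocampus tumors. It measured 8.60 to 9.67 in hippocampus tumors 1 to 4 and 7.21 to 7.58 in tumors 5 to 7, against 7.65 to 7.83 in normal hippocampus and 9.52 to 9.84 in normal cortex. Cortex tumors had 8.01, 8.78, 7.77 and 8.24. The hippocampus change of 0.64 did not pass (adjusted p = 0.111), and the interaction of 2.16 ± 0.48 had an adjusted p of 0.0233.

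In 8 genes the hippocampus tumors rose and the cortex comparison was not called, which does not show that cortex was unchanged. Among them Racgap1, a cytokinesis gene, rose 2.24 in hippocampus, from 6.72 to 7.31 in normal tissue to 8.77 to 9.65 in the tumors. In cortex it went from 7.56 to 7.92 to 8.04, 7.98, 8.72 and 8.57, a change of 0.60 that did not pass (adjusted p = 0.0726). All cortex tumors nevertheless lay above all normal cortex samples for Racgap1. The Racgap1 tumor groups did not overlap and differed by 0.94 (adjusted p = 0.0241). The other 7 were Blnk, Fnbp1l, Gipc1, Hmgb3, Raly, Relt and Septin11. Normal-tissue differences just past the boundary were 0.508 for Gdf10 and -0.526 for Pfkp, and just inside it -0.48 for Mup5 and -0.471 for Tpd52.

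**Figure D1:**
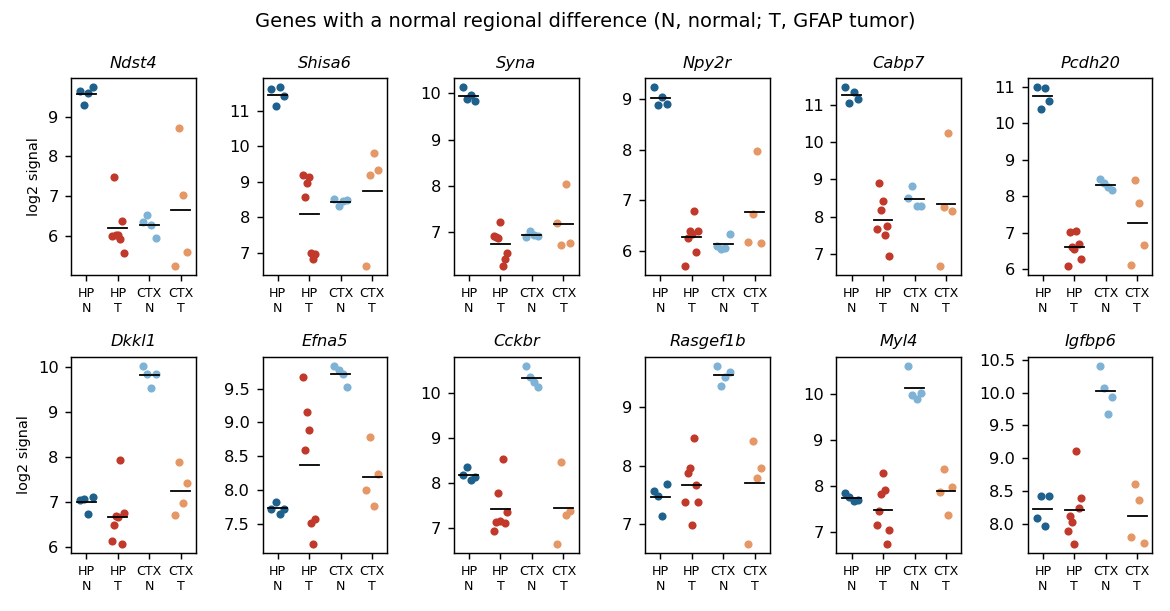
Log2 signal of 12 named genes with a normal regional difference, 1 point per array and a line at the group mean, for normal (N) and GFAP tumor (T) samples of hippocampus (HP, 4 and 7 arrays) and cortex (CTX, 4 and 4 arrays); each panel has its own axis. In the top row normal hippocampus is the high group and in the bottom row normal cortex is, while the 2 tumor groups overlap in all 12 genes.

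The tumor groups themselves kept little of the normal regional difference in these arrays. Over the 1161 genes, the tumor difference and the normal difference had a Pearson r of 0.03 and a slope of 0.01 log2 per log2, as a description across genes that are not independent. The sign agreed in 57.4% of them, and in 51.8% of the 280 genes whose normal tissues differed by 1 log2 or more. The median tumor difference was -0.18 both for genes higher in normal hippocampus and for genes higher in normal cortex. The cortex set is the larger, so the share of 57.4% also reflects the sizes of the 2 sets. In normal tissue 257 of all genes were called (1.29%), which is the difference the split used. The direct tumor difference was called in 16 of the 1161 genes (1.38%), against 534 of all genes (2.68%), 446 higher (2.24%) and 88 lower (0.441%) in hippocampus tumors. Of these 16, 7 had the sign of the normal difference and 9 the opposite sign.

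The 4 arrays that stand apart changed this count. Without them r was 0.17 and the slope 0.11, the sign agreed in 61.8%, and 133 of the 1161 genes were called (11.5%), 79 with the normal sign and 54 against it, beside 2090 of all genes (10.5%). The median tumor difference was then -0.1 for genes higher in normal hippocampus and -0.32 for genes higher in normal cortex. Leaving out single arrays gave 1421 calls over all genes without cortex tumor 1, 883 without hippocampus tumor 5, 286 and 220 without hippocampus tumors 6 and 7, and 252 and 205 without cortex tumors 2 and 3. The block on replicate number gave 1954 calls (1924 with hippocampus tumors 1 to 4 only), and quantile normalization 141, 85 higher and 56 lower. With the spread estimated from only the 19 arrays, 227 genes were called.

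**Figure D2:**
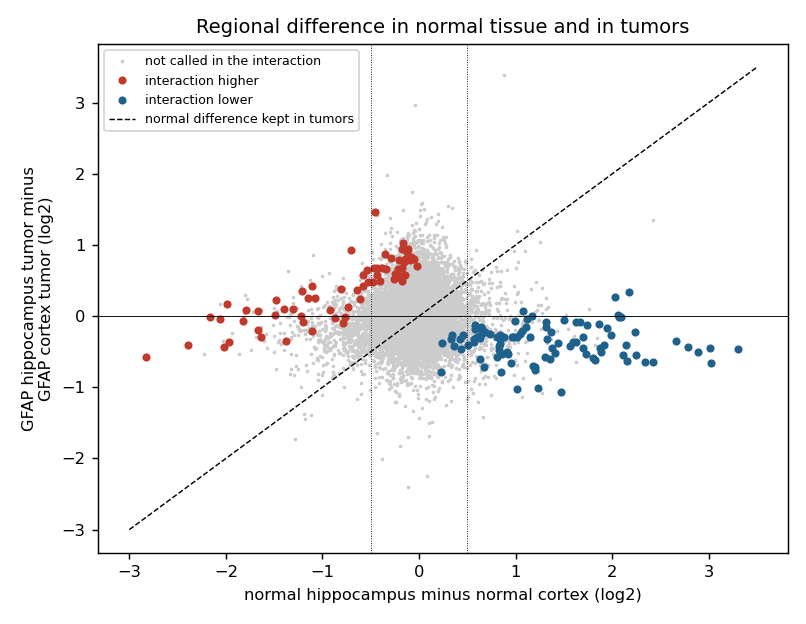
Difference between GFAP hippocampus and GFAP cortex tumors (vertical, log2) against the difference between normal hippocampus and normal cortex (horizontal, log2), 1 point per gene for 19938 genes; red and blue mark the 68 genes with a higher and the 99 with a lower called interaction, dotted lines the 0.5 log2 split and the dashed line a normal difference kept in full. Genes with a normal difference lie along the horizontal line at 0 (slope 0.01 over 1161 genes) and not along the dashed line.

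Among the 7 genes that kept the sign were Sfrp1, a secreted WNT antagonist, and Abi3bp, a matrix protein gene. Sfrp1 measured 8.77 to 9.06 in normal cortex and 9.34, 8.80, 9.14 and 8.44 in cortex tumors 1 to 4. In normal hippocampus it measured 7.68 to 8.01 and in hippocampus tumors 6.74 to 8.20. Both pairs of regions were separated without overlap, and the tumor difference for Sfrp1 was -1.39 (adjusted p = 0.00549), or -0.86 (adjusted p = 0.0224) without the 4 arrays. Abi3bp differed by -1.73 between tumors (adjusted p = 0.0125), with 9.29 and 9.07 in cortex tumors 1 and 2 and 6.73 and 7.31 in tumors 3 and 4. Its adjusted p without the 4 arrays was 0.0537. The others were 4930578G10Rik, Gpr21, Krt80, Cwh43 and Abi1, of which Abi1, a regulator of actin assembly, was the 1 gene higher in hippocampus on both sides (0.54 in normal tissue, 0.80 in tumors).

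Among the 9 genes with the opposite sign, Mdga1, an adhesion molecule of neurons, was 1.18 higher in normal hippocampus than in normal cortex and had a tumor difference of -0.70 (adjusted p = 0.0241). It measured 6.94 to 7.63 in hippocampus tumors and 7.85, 8.27, 8.49 and 7.75 in cortex tumors 1 to 4, without overlap. Wipf3, an actin regulator, went from 1.23 to -1.01 (adjusted p = 0.0302). Mdga1 and Wipf3 passed without the 4 arrays as well.

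Averaged over genes with a normal difference of 1 log2 or more, the arrays showed the same picture. For 119 genes higher in normal hippocampus the mean level, counted from the midpoint of the 2 normal tissues, was 0.57 to 0.93 in normal hippocampus and -0.76 to -0.74 in normal cortex. It was -1.12 to -0.40 in hippocampus tumors and -1.07 to -0.09 in cortex tumors. Hippocampus tumors 5 to 7 (-1.09, -1.05 and -1.12) and cortex tumor 1 (-1.07) were the lowest and lay below normal cortex. For 161 genes higher in normal cortex the range was -1.30 to -0.59 in hippocampus tumors and -1.51 to -0.16 in cortex tumors. Both tumor groups therefore lay low on both sets. The first mean minus the second was -0.50 to 0.67 (median 0.25) in hippocampus tumors and -0.31 to 0.77 (median 0.26) in cortex tumors, against 1.26 to 1.58 in normal hippocampus and -1.49 to -1.35 in normal cortex. The normal values chose these genes and are given as a scale only.

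**Figure D3:**
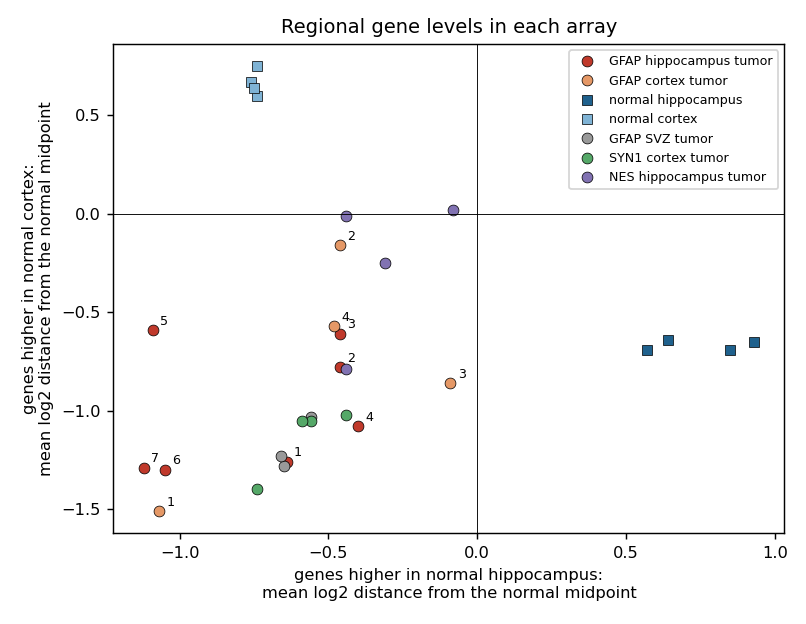
Mean log2 distance from the midpoint of the 2 normal tissues for 119 genes higher in normal hippocampus (horizontal) and 161 genes higher in normal cortex (vertical), 1 point per array for all 30 arrays, with replicate numbers on the GFAP hippocampus and GFAP cortex tumors. The normal tissues (squares) lie at opposite corners because they chose the genes, and GFAP tumors of both regions lie together at the lower left, between -1.12 and -0.09 on the horizontal axis.

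The other tumor groups were described in the same way. The NES hippocampus minus SYN1 cortex tumor difference had the sign of the normal difference in 36.4% of the 1161 genes (r = -0.24), although in that pair promoter and region cannot be told apart. This difference was positive in both sets, with a median of 0.27 for genes higher in normal hippocampus and 0.67 for genes higher in normal cortex. Over all genes its median was -0.01. The difference of the 2 means was 0.47 to 0.63 in SVZ tumors, 0.46 to 0.66 in SYN1 cortex tumors and -0.44 to 0.34 in NES hippocampus tumors.

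Among genes whose normal tissues were alike, 39 were called, 31 higher and 8 lower. The direct tumor difference was called in 30 of the 31 and 4 of the 8, beside 2.68% of all genes. These tumor calls are largely built in and are not a second test. With a small normal difference the interaction is mostly the tumor difference, measured on the same tumor arrays. In the 31 the median normal difference was -0.18 and the median tumor difference 0.70. In the 8 the medians were 0.35 and -0.34, so the normal and tumor differences were of similar size. This split depended on how the arrays were scaled. After centring each array on its median, 133 were higher and 3 lower, whereas quantile normalization left 13 in each direction, with 6 genes in common with the 39. Centring raised the median tumor difference over all genes from 0.00 to 0.12. Under quantile normalization 2 of the 31 were called, with interactions of 0.02 to 1.47 that kept their sign. The 31 genes were brighter than most, with a median mean level of 9.62 against 7.81 for all genes, and 24 of them lay above that overall median. The brightest 5% of all genes had a median interaction of 0.29 as deposited and -0.07 after quantile normalization, so signal level moved with the interaction, and its part in these calls was not tested.

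The count was also sensitive to single arrays. It was 83 without cortex tumor 1, 23 without cortex tumor 3, 71 and 91 without hippocampus tumors 4 and 5, and 17 to 25 without any 1 of the normal samples. Without the 4 arrays that stand apart it was 277, including 30 of the 39, and with the replicate block 311. A total of 13 of the 39 genes were called whichever of the 19 arrays was left out: Abcf2, Atp6v1g1, Btnl5-ps, Cbfa2t3, Ccno, Cylc1, Cyp2c65, Dnajb1, Eif4h, Elof1, Grhl1, Stard4 and Stub1. Of the 128 genes with a normal difference, 82 were.

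Of the 31 genes, 17 rose in hippocampus tumors without a call in cortex, 7 fell in cortex tumors without a call in hippocampus, 6 rose in hippocampus and fell in cortex, and 1, Rpsa, rose in both. Tmsb10, which encodes an actin-sequestering thymosin, had the largest value, 1.92 ± 0.46 SE (adjusted p = 0.0365). It measured 9.34 to 9.62 in normal hippocampus, 11.34, 11.07, 10.99 and 10.80 in hippocampus tumors 1 to 4 and 12.52, 12.59 and 12.96 in tumors 5 to 7. Normal cortex had 9.80 to 9.97 and cortex tumors 1 to 4 had 10.85, 10.04, 10.16 and 10.11. The tumor groups overlapped through cortex tumor 1, and tumors 5 to 7 were the highest. Without the 4 arrays the interaction of Tmsb10 was 1.40 (adjusted p = 0.000558).

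Pkm, a pyruvate kinase gene of glycolysis, measured 12.57 to 13.72 in hippocampus tumors and 11.72 to 12.28 in cortex tumors, without overlap, against 11.83 to 12.13 and 12.04 to 12.22 in the normal tissues. It rose 1.04 in hippocampus (2.06-fold) and had -0.15 in cortex (adjusted p = 0.667). Tpd52, a vesicle trafficking gene, rose 1.26 in hippocampus with an interaction of 1.14 ± 0.27, part of which came from its normal difference of -0.471. Slbp, which binds histone mRNA, rose 1.18 with an interaction of 1.10 ± 0.26. Mtpn, an ankyrin repeat protein gene, rose 0.50 in hippocampus and fell by 0.62 in cortex tumors. Cyp2c65, a cytochrome gene of low signal, rose 0.74 in hippocampus tumors.

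Sterol and fatty acid genes were also in the set. Insig1, which holds sterol-regulated transcription factors in the endoplasmic reticulum, measured 10.35 to 10.68 in normal cortex and 9.30, 9.44, 9.45 and 9.74 in cortex tumors 1 to 4, a fall of 1.05 (2.08-fold). In hippocampus it measured 10.03 to 10.24 in normal tissue and 9.81 to 10.76 in tumors, a change of 0.05 (adjusted p = 0.834). The Insig1 tumor groups did not overlap. Stard4, a sterol carrier, fell by 0.51 in cortex and rose 0.55 in hippocampus tumors (interaction 1.06 ± 0.20, adjusted p = 0.00433). For Insig1 and Stard4, as for Tmsb10 and Tpd52, normal hippocampus lay below normal cortex without overlap, which adds to the interaction. Acly, which makes acetyl-CoA for lipid synthesis, rose 1.06 in hippocampus tumors with an interaction of 1.01 ± 0.23. In a set of 19 other genes of these pathways, put together after these values were seen, none had a called interaction. Their median interaction was 0.56 and the range 0.12 to 1.12 (lowest -0.17 without the 4 arrays). Of the 19, 10 fell in cortex tumors and 4 in hippocampus tumors, beside 18.8% and 25.2% of all genes. Under quantile normalization 6 fell in cortex and 2 in hippocampus tumors, with a median interaction of 0.41.

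The 8 genes lower in hippocampus were Btnl5-ps, Grhl1, Cbfa2t3, Ippk, Pirt, Ccno, Cfap100 and Mycl, with interactions of -1.01 to -0.61. Btnl5-ps, a butyrophilin-like pseudogene, measured 9.07 to 9.30 in normal hippocampus, 7.09 to 7.67 in hippocampus tumors, 8.71 to 9.14 in normal cortex and 8.06, 8.37, 8.35 and 8.06 in cortex tumors 1 to 4. It fell in both regions, by 1.77 and by 0.76, and its interaction with the mean of its 3 probe sets was -0.46 and not called. Grhl1, an epithelial transcription factor gene, fell by 1.13 in hippocampus tumors and Cbfa2t3, a transcriptional corepressor gene, by 0.94, and neither was called in cortex tumors. Ccno and Cfap100, genes of motile cilia, fell by 0.53 and by 0.74. Mycl, of the MYC family, fell by 0.73. Part of each interaction came from a normal difference of 0.22 to 0.46. Of the 8 genes 3 were called after centring and 4 under quantile normalization. Rpsa and Ppia, among the higher genes, have near-identical copies, so their values are uncertain.

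**Figure D4:**
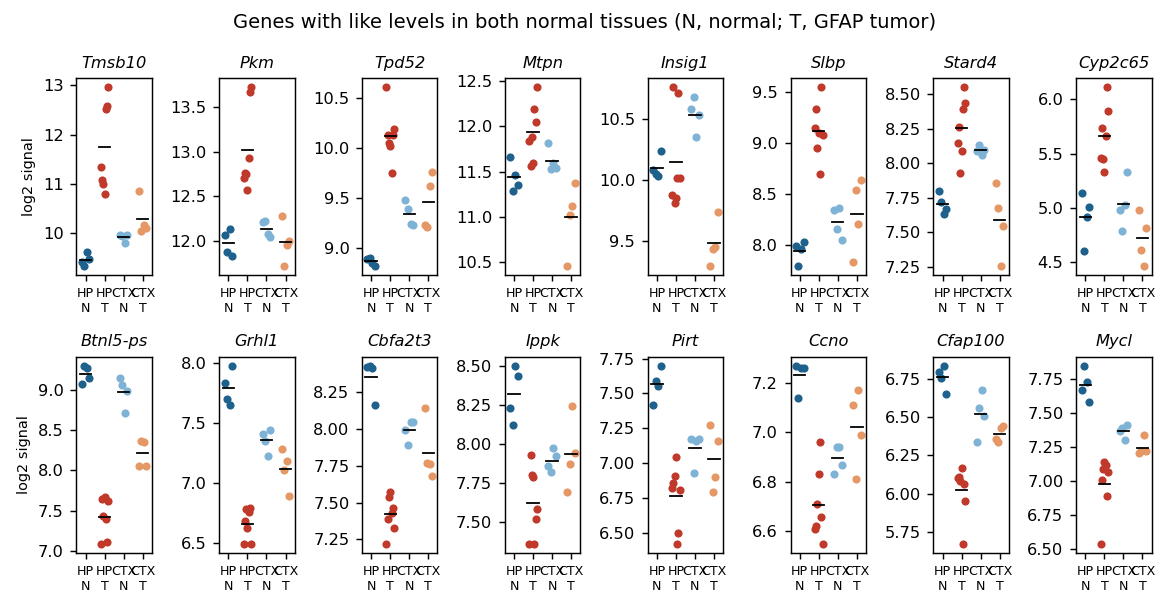
Log2 signal of 16 named genes with like normal tissues, 1 point per array and a line at the group mean, for normal (N) and GFAP tumor (T) samples of hippocampus (HP) and cortex (CTX); each panel has its own axis. In the top row hippocampus tumors lie above cortex tumors and in the bottom row below them, with overlap in some genes and hippocampus tumors 5 to 7 highest for Tmsb10 (12.52 to 12.96).

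Genes were also read by list, as counts beside the share called among all genes. Of 19 hippocampus region genes 12 had a called negative interaction (background 0.497%), 17 fell in hippocampus tumors and 3 in cortex tumors. Among the 460 genes higher in normal hippocampus, the nearer background, these shares were 19.8%, 64.3% and 17.6%. The median interaction was -1.83, and without the 4 arrays 11 were called. These genes are mostly ones whose normal tissues differ, so the normal difference is part of these values. The 5 that fell without a called interaction included Lhx2, a cortical patterning factor (-1.92 in hippocampus, -1.31 in cortex), and Calb1, a calcium buffer of granule cells (-1.91 and -2.16), whose normal levels were alike. Calb1 measured 5.70 in cortex tumor 1 and 9.10 to 10.32 in the other cortex tumors, and without cortex tumor 1 its cortex value was -1.19 (adjusted p = 0.153).

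Of 18 cortex region genes 1, Dkkl1, had a called positive interaction, while 16 fell in cortex and 12 in hippocampus tumors. Among the 701 genes higher in normal cortex, the nearer background, these shares were 5.28%, 72.8% and 44.4%. With all arrays the direct tumor comparison called none of the 18. Without the 4 arrays that stand apart it called 8 lower in hippocampus than in cortex tumors. The median tumor difference was then -0.77, and the median normal difference was -0.96. The same fit called 398 of 19938 genes lower, and 3 of the 19 hippocampus region genes. Lamp5, of superficial cortical neurons, fell by 3.67 in cortex and by 1.97 in hippocampus tumors. Tbr1, a factor of deep-layer neurons, fell by 2.64 and by 2.42. Of 17 projection neuron genes enriched in or shared with hippocampus, all 17 fell in hippocampus and 15 in cortex tumors, beside 25.2% and 18.8% of all genes. A called negative interaction was found in 1, Pcdh20, and in 7 without the 4 arrays, beside 0.497% and 0.953% of all genes. The direct tumor comparison called 1 of the 17 lower in hippocampus tumors, beside 0.441% of all genes. Without the 4 arrays it called 8, beside the 398 of 19938 genes. Neurod6 fell by 4.91 in hippocampus (30.1-fold) and fell by 3.27 in cortex tumors, with an interaction of -1.64 that did not pass (adjusted p = 0.335).

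General neuron genes fell in both regions. Of 20 neuron and synapse genes 17 fell in hippocampus and 16 in cortex tumors, beside 25.2% and 18.8% of all genes, with medians of -2.16 and -2.01 and no called interaction. Without the 4 arrays that stand apart their median interaction went from 0.05 to -0.57. The direct tumor comparison then called 5 of the 20 lower in hippocampus tumors, beside 398 of 19938 genes. Cell cycle genes rose in both, 23 of 23 in hippocampus and 21 of 23 in cortex tumors, beside 16.1% and 9.0% of all genes, with medians of 1.89 and 1.65 and no called interaction (2 without the 4 arrays). Their median interaction was 0.29, and 0.84 without the 4 arrays. The direct tumor comparison then called 9 of the 23 higher in hippocampus tumors, beside 1692 of 19938 genes. Against the same shares, 15 of 21 microglia and macrophage genes rose in hippocampus and 16 in cortex tumors, with medians of 1.55 and 1.70. Of 13 interferon and antigen presentation genes 11 rose in each. Of 19 matrix genes 15 rose in hippocampus and all 19 in cortex tumors. The medians were 1.5 and 2.53, and no interaction passed. Without the 4 arrays 18 matrix genes rose in hippocampus and 16 in cortex tumors, and the median interaction went from -0.26 to 0.17. The astrocyte, oligodendrocyte, oligodendrocyte precursor, progenitor, interneuron, immediate early, T and NK cell, neutrophil, endothelial, mural cell and muscle lists also had no called interaction, against 0.838% of all genes. Without the 4 arrays 3 of the 13 endothelial genes (median interaction 0.76) and 1 of the 14 immediate early genes were called higher, beside 1.74% of all genes, and the astrocyte median went from 0.34 to -0.72.

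Genes of protein synthesis and energy use differed in the direct tumor comparison. Of 11 ribosomal protein genes 7 were higher in hippocampus than in cortex tumors (background 2.24%), with a median of 0.66. Rps18 was 1.03 higher and Rpl13 0.91. Of 16 oxidative phosphorylation genes 4 were higher (Cox5a, Cox7a2, Atp5a1 and Atp5b), and 12 of the 16 fell in cortex tumors against 2 in hippocampus tumors. Of 14 hypoxia and glycolysis genes Pgk1, Ldha and Aldoa were higher. Under quantile normalization none of these differences passed, the list medians were 0.29, 0.29 and 0.08, and 2 of the 16 oxidative phosphorylation genes fell in each region. The part of signal level in these differences was not tested. Single interactions passed for Atp5b (0.90), Aldoa (0.72), the B cell and macrophage adaptor gene Blnk (1.02), the choroid plexus gene Kl (-1.99, and -1.68 with adjusted p = 0.069 without the 4 arrays) and Lhx9. The mean of the 13 ependymal and choroid plexus genes, Kl among them, was 7.93, 7.86, 7.32 and 7.24 in normal hippocampus 1 to 4 and 6.93 to 7.12 in normal cortex, and its part in the Kl value was not tested.

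**Figure D5:**
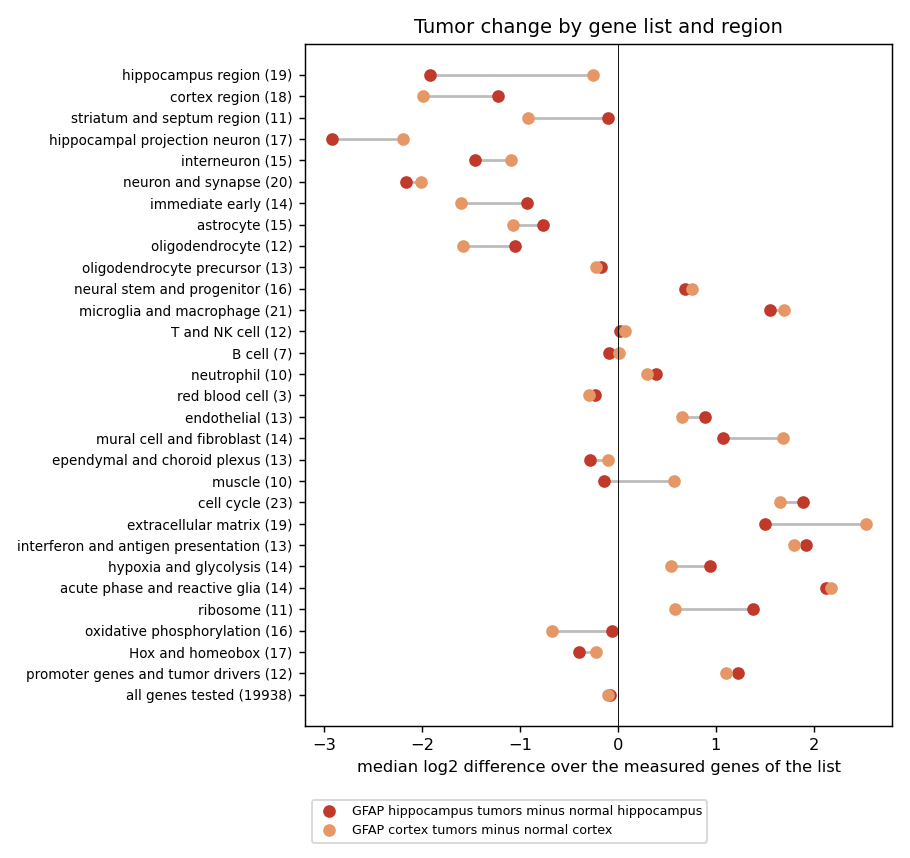
Median log2 difference from the normal tissue of the same region over the measured genes of each list (number in brackets) in GFAP hippocampus tumors (red) and GFAP cortex tumors (orange), joined by a grey line. With all arrays the hippocampus region list is the widest apart (-1.92 against -0.25), and the neuron, cell cycle, microglia and interferon lists lie close together.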

How the data were processed

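RNA was extracted with Trizol and hybridised to Affymetrix Mouse Gene 1.0 ST arrays, per the labels' protocols. Per probe set and array, the authors deposited 1 log2 signal value. Affymetrix Power Tools, MAS5 and RMA are named, without versions, in the submitters' processing notes; the normalization between arrays is not given in the sources used here. Array medians were 7.03 to 7.30, and no further scaling was applied. Log2 signal includes background, which compresses differences between dim genes.

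Of 35556 probe sets, 21789 named 1 gene symbol, 1621 several and 12146 none, and 21698 matched RefSeq. The brightest probe set was kept for each of 19938 genes (999 had several). The 7 group means were fitted over all 30 arrays with limma 3.58.1 (R 4.3.3), and p-values were adjusted by Benjamini-Hochberg over all genes within each contrast. Errors are SE of this fit. The scripts were tested on simulated data in which all groups had the same spread, so unequal spread between groups was not tested. The number of arrays limits the precision. The labels do not say that samples came from separate animals, so the spread behind the p-values is that of the samples and may be technical.

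Named genes were the 8 largest interactions in each direction with like normal tissues and the 6 largest with a normal difference among adjusted p under 0.05, predicted and olfactory genes left out, with list members as examples, Gfap, Nes and Syn1, and the genes next to the 0.5 boundary. Other genes named were picked after their values were seen. The comparison and the 29 lists (412 of 458 genes measured) were chosen with earlier results of these data known.

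Replicate numbers were checked for pairing. Equal-numbered GFAP hippocampus and cortex tumors 1 to 4 had residual correlations of 0.277 to 0.306, but 0.05 to 0.522 when hippocampus residuals were taken from the mean of tumors 1 to 4, and the other 5 pairs of groups did not correlate by number. Hippocampus tumors 5 to 7 carry numbers that no other group has. In the block fit each of them has a term of its own, so they do not enter the contrasts. That fit therefore also differs from the main fit by the loss of these arrays, and its counts do not measure pairing alone. Fits with the number as a block are given beside the results.

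Alternatives were array centring, quantile normalization, leaving out the 30% dimmest genes, the mean of probe sets, trend and robust settings, only the 19 arrays, array weights, the block, hippocampus tumors 1 to 4 only, other boundaries, leaving out each array or the 4 that stand apart, and, added after seeing the data, hippocampus tumors 5 to 7 only.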

Additional observations from a re-analysis of the deposited data

Results flagged for a closer look

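The tumor change differed between the 2 regions, by the limma interaction test at an adjusted p under 0.05, for each of the following 28 named genes. With like normal tissues the interaction was 1.92 for Tmsb10, 1.19 for Pkm, 1.14 for Tpd52, 1.12 for Mtpn, 1.10 for Insig1 and for Slbp, and 1.06 for Stard4 and for Cyp2c65. It was -1.01 for Btnl5-ps, -0.89 for Grhl1, -0.78 for Cbfa2t3, -0.74 for Ippk, -0.72 for Pirt, -0.65 for Ccno, and -0.61 for Cfap100 and for Mycl. With a normal difference, which is itself a term of the interaction, it was 2.25 for Dkkl1, 2.16 for Efna5, 2.15 for Cckbr, 2.03 for Rasgef1b, 1.99 for Myl4 and 1.89 for Igfbp6. It was -3.76 for Ndst4, -3.67 for Shisa6, -3.45 for Syna, -3.39 for Npy2r, -3.21 for Cabp7 and -3.07 for Pcdh20.

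In 10 of 124 groups of values, 1 array lay far from the others of its group by Dixon's test, which chance does in about 1 in 20 groups. These were Tmsb10 in GFAP cortex tumor 1 (10.85), Cbfa2t3 in normal hippocampus 4 (8.16), Pirt in normal cortex 2 (6.93), Ccno in normal hippocampus 2 (7.14), Cfap100 in GFAP hippocampus tumor 5 (5.67), Mycl in GFAP hippocampus tumor 1 (6.54) and in GFAP cortex tumor 3 (7.34), Dkkl1 in GFAP hippocampus tumor 5 (7.94) and in normal hippocampus 3 (6.75), and Ndst4 in GFAP hippocampus tumor 2 (7.49).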

How the results depend on the processing

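The counts below are, in order, all interaction calls (167), those with like normal tissues (39), those with a normal difference (128) and the direct tumor comparison (534). Array weights gave 1696, 1187, 509 and 1075. Hippocampus tumors 1 to 4 alone gave 493, 280, 213 and 1924, and tumors 5 to 7 alone, chosen after the data were seen, 2362, 2039, 323 and 4965. Without the 4 arrays that stand apart the counts were 537, 277, 260 and 2090, and with the replicate block 542, 311, 231 and 1954. The block fit leaves hippocampus tumors 5 to 7 out of the contrasts, as the fit with tumors 1 to 4 alone does. Centring gave 303 interaction calls, 136 of them with like normal tissues, and 1476 in the tumor comparison, which had 141 calls under quantile normalization and 227 with only the 19 arrays. A boundary of 0.25 log2 put 21 calls among genes with like normal tissues, and a boundary of 1 log2 put 84 there and 83 among the others. Leaving out 1 array gave 108 to 270, 17 to 91, 85 to 187 and 205 to 1421. The other counts stayed within 1.5 times, and the cause of these shifts was not tested.

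Each of the 28 called genes named by rule kept its direction under every alternative in which it was tested; Cyp2c65 and Cfap100 were not tested without the 30% of genes with the lowest mean. Under quantile normalization 11 of them no longer passed, with only the 19 arrays 9 and with centring 5. The uncalled promoter genes changed sign. Syn1 had 0.10 with centring and 0.38 both with the replicate block and with hippocampus tumors 1 to 4 only. Gfap had -0.25 in both of these, -1.12 with array weights and -1.35 without the 4 arrays. Nes had -0.07 with quantile normalization and -0.61 with tumors 5 to 7 only. With 1 array left out the values were -0.91 to 0.77 for Gfap, -0.22 to 0.41 for Nes and -0.91 to 0.43 for Syn1. Genes of low signal are limited by background, so small differences such as those of Ccno and Cfap100 are compressed.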

Other observations

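Skeletal muscle genes were raised in GFAP cortex tumors 1 and 4. The mean of 10 such genes was 8.49 and 8.27 in these arrays and 6.72 and 6.73 in cortex tumors 2 and 3, against 6.63 to 6.98 in hippocampus tumors and 6.81 to 7.01 in normal tissue. The muscle actin gene Acta1 measured 9.82 and 9.18 in cortex tumors 1 and 4 and 7.66 and 7.65 in tumors 2 and 3. The creatine kinase gene Ckm measured 8.57 and 8.24 against 6.85 and 7.12. The direct tumor comparison called 4 of the 10 genes lower in hippocampus tumors (Tnni2, Ckm, Myh4 and Atp2a1), beside 0.441% of all genes. No muscle gene had a called interaction. The count of 4 was 1 under quantile normalization and 0 without the 4 arrays that stand apart, of which cortex tumor 1 is a member.

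GFAP cortex tumor 1 had the highest mean of the mural cell and fibroblast genes (10.15, against 8.17 to 9.05 in the other GFAP cortex and hippocampus tumors) and of the matrix genes (11.10, against 8.62 to 10.33), and the lowest of the astrocyte genes (7.55, against 9.02 to 11.03). In hippocampus tumor 5 the cell cycle mean was 7.57, against 8.50 to 9.86 in the other hippocampus tumors and 7.06 to 7.14 in normal hippocampus.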
